A study of Mus musculus with 12 samples.

Results

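The immunoglobulin constant region genes were followed in bulk RNA-seq of tumor-associated macrophages (TAMs) sorted from B16-F10 melanoma, a mouse melanoma line grown under the skin. The 10 genes Ighm, Ighd, Ighg1, Ighg2b, Ighg2c, Ighg3, Igha, Igkc, Iglc1 and Iglc2 were chosen by symbol from the 55401 genes of each of 2 count tables. A total count over all libraries was to settle symbols found on several rows, and each of the 10 symbols stood on 1 row. The family itself was chosen with earlier results of these data known. Its counts of calls beside those of all genes are therefore a description. Of the 12 samples, 6 belong to the comparison of tumor stage, with 3 early-stage samples (day 8 after implantation) and 3 late-stage samples (day 15), all labelled WT. The other 6 belong to the comparison of genotype at day 15, with 3 WT samples (AMPKfl/fl, carrying floxed AMPK alleles) and 3 AMPK-KO samples (AMPKfl/flLyz2cre/cre, the same floxed alleles with Cre under the myeloid Lyz2 promoter). The genotype fields of AMPK-KO replicates 2 and 3 write Lyz3 and Lyz4 in place of Lyz2. No group was treated, and the study describes female mice of 5 weeks of age on a C57BL/6 background and a CD45+CD11b+Ly6C-Ly6G-F4/80+ gate for TAMs. Cre under the Lyz2 promoter acts in the myeloid lineage, and WT and AMPK-KO here mean the libraries so labelled.

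An antibody is built of heavy and light chains, and the constant region gene of the heavy chain sets its class: Ighm for IgM, Ighd for IgD, Ighg1, Ighg2b, Ighg2c and Ighg3 for the IgG subclasses, and Igha for IgA. Naive B cells make IgM and IgD from 1 transcript by splicing, and later join the same variable region to an IgG, IgE or IgA gene by class switch recombination. Igkc encodes the constant part of the kappa light chain and Iglc1 and Iglc2 that of lambda chains, with kappa the more common in mice. B cells and the plasma cells they give rise to are the known makers of antibody, and macrophages bind it through Fc receptors.

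The heavy-chain genes lie side by side on the minus strand of chromosome 12 (GRCm38, GENCODE M21), with Ighm at chr12:113418558-113422730 nearest to the variable segments and followed by Ighd at chr12:113406604-113416324, Ighg3 at chr12:113356224-113361232, Ighg1 at chr12:113325240-113330523, Ighg2b at chr12:113302965-113307933, Ighg2c at chr12:113285325-113288932 and Igha at chr12:113254830-113260236. Igkc lies at chr6:70726435-70726966 on the plus strand, and Iglc1 at chr16:19061618-19062071 and Iglc2 at chr16:19198396-19200351 on the minus strand. All are annotated as immunoglobulin constant genes. Iglc1 lies within the antisense gene 2010309G21Rik without sharing exon bases, and Iglc2 shares 38 exon bases with the joining segment Iglj2. The following stretches of 90 bases near the start of the coding sequence are shown because counts of the lambda genes depend on telling near copies apart. Capitals mark bases that differ from Iglc2, which differs from Iglc3 at 5 positions of the stretch and from Iglc1 at 19.
Iglc2: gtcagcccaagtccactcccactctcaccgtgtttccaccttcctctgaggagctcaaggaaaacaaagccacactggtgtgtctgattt
Iglc3: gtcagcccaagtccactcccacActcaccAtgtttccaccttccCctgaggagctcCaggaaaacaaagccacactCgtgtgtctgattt
Iglc1: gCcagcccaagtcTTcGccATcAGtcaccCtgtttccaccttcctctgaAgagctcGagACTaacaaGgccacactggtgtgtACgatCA
Over the coding sequence Iglc2 and Iglc3 were 96.2% identical and Iglc1 and Iglc2 73.4%. Among the IgG genes Ighg2b and Ighg2c were closest at 85.6%, and the other pairs reached 74.1% to 76.2%. No window of 100 bases was shared exactly between Iglc2 and Iglc3 or between Ighg2b and Ighg2c. Of the 50-base windows, 10.5% of those of Iglc2 occurred in Iglc3 and 5.26% of those of Ighg2b in Ighg2c. How multiply mapped reads were counted is not given in the sources used here. The split between Iglc2 and Iglc3 is therefore uncertain, and to a lesser extent that between Ighg2b and Ighg2c.

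The first 90 coding bases of Ighm and Igkc, the heavy and light chain genes with the most counts, are shown because the balance between both chains turns on them.
Ighm: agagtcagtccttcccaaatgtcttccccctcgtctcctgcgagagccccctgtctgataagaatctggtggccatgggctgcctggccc
Igkc: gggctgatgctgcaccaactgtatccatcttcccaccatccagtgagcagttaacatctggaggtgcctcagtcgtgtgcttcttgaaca

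Library totals lay between 77155066 and 84470374 counts in the stage samples and between 71019494 and 81671067 in the genotype samples. Macrophage genes were abundant in all 4 groups, with mean Csf1r, the receptor of the macrophage growth factor, at 942 to 1334 CPM (counts relative to the TMM-scaled library total). Prkaa1, which encodes the alpha1 catalytic subunit of AMPK, had 4959, 4535 and 5165 counts in WT and 3467, 3285 and 3297 in AMPK-KO samples, a fall that passed the test (log2 fold change -0.60, adjusted p = 0.00023). Lyz2, the gene that carries the Cre insertion, was at 9.16 to 13.5 CPM in all 6 libraries labelled WT or AMPK-KO, against 1092 to 3009 CPM in the stage samples. The libraries labelled WT thus overlapped in this gene with AMPK-KO (adjusted p = 0.830) and stood far below the other samples labelled WT. Transcripts of 4 genes on the Y chromosome (Uty, Kdm5d, Ddx3y and Eif2s3y) summed to 3435 to 4035 counts in early-stage samples and to at most 4 in late-stage samples, and 9229 to 12183 in the genotype samples. These counts go against the stated female sex in the early-stage and genotype samples, and the sex of the source animals and the tumor stage cannot be told apart. The labels do not say whether replicates came from separate animals, so p-values measure only the spread between these samples, which may be technical. Each pair of replicates differed by more than counting noise (chi-square per degree of freedom 9.33 to 121).

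Late-stage TAMs carried more Ighm, Ighd, Ighg2b, Ighg2c and Ighg3 RNA than early-stage TAMs, and none of the 10 genes was called lower. The change was uneven across classes, from 1.95 and 1.80 times in mean CPM for Ighm and Ighd to 9.70 and 17.7 times for Ighg2c and the sparse Ighg3, while Ighg1 and Igha overlapped between stages. The comparison addresses how TAMs change while the tumor grows. By the quasi-likelihood test of edgeR with an adjusted p under 0.05, 5 of the 10 genes were called higher, beside 4.31% of all 17630 genes tested, and 0 were called lower, beside 4.88%. DESeq2 called 6 higher and 0 lower, beside 2650 of all 17630 genes called in either direction. At an unadjusted p under 0.05 both tools had 8 higher and 0 lower, for which no share of all genes was counted. The groups did not overlap for 7 of the 10 genes, beside 31.2% of all genes tested, and the median log2 fold change of the 10 was 0.92, beside 0.0027 over all genes.

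Ighm, the class of naive B cells and the most abundant constant region gene per kilobase of exon, had 110, 108 and 110 CPM in the early-stage samples and 189, 227 and 225 CPM in the late-stage samples. All late-stage samples were above all early-stage samples, with a mean of 109 ± 0.938 CPM (SD, n = 3) rising to 214 ± 21.5 CPM (log2 fold change 0.97, SE 0.08, adjusted p = 0.000145). Ighd had 6.59, 6.79 and 7.36 CPM in early-stage and 7.97, 15.1 and 14.3 CPM in late-stage samples. Late-stage sample 1 was little above the early-stage samples and the other two far above, and the gene rose by 0.85 on the log2 scale (SE 0.22, adjusted p = 0.0393). This call was lost when any library other than late-stage sample 1 was left out, with adjusted p up to 0.162, and with no filter on low counts (adjusted p = 0.111). In bulk samples such as these, more cells of a type and more RNA per cell cannot be told apart.

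Among the IgG subclasses the 4 genes went different ways. Ighg2c, an IgG2 gene of the C57BL/6 strain, had 2.94, 2.92 and 2.12 CPM in early-stage samples and 20.8, 27.4 and 29.2 CPM in late-stage samples. The groups were far apart, with a difference of 3.28 on the log2 scale (SE 0.18, adjusted p = 1.15e-05) that stayed between 3.14 and 3.41 whichever library was left out. Ighg2b had 5.07, 3.62 and 2.71 CPM in early-stage and 10.4, 10.2 and 11.4 CPM in late-stage samples, without overlap (log2 fold change 1.49, SE 0.21, adjusted p = 0.00221). Ighg3, the IgG gene next to Ighd on the chromosome, had 22, 8 and 15 counts in early-stage samples and 50, 376 and 366 counts in late-stage samples. It was sparse at the early stage, and late-stage sample 1 held far less of it than late-stage samples 2 and 3. The rise was 4.12 on the log2 scale (SE 0.73, adjusted p = 0.00739), which missed the threshold without early-stage sample 2 (adjusted p = 0.0570).

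Ighg1, the subclass with the most IgG counts at the early stage, had 22.6, 20.5 and 14.7 CPM in early-stage samples and 4.39, 19.2 and 19.0 CPM in late-stage samples. The ranges overlapped, and late-stage sample 1 was the lowest of the 6 (log2 fold change -0.44, SE 0.43, adjusted p = 0.584). Igha had 4.13, 5.35 and 2.81 CPM in early-stage and 6.52, 5.45 and 4.50 CPM in late-stage samples, and overlapped as well (log2 fold change 0.42, SE 0.24, adjusted p = 0.329). Ighe, the IgE gene, had 0, 4 and 0 counts in early-stage samples and 0, 127 and 93 counts in late-stage samples. It was too sparse for the test, and both late-stage samples that held it were those richer in Ighg3 and Igkc.

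The light chains were higher on average at the late stage without passing the test. Igkc had 26.5, 28.9 and 29.0 CPM in early-stage samples and 27.1, 58.6 and 61.0 CPM in late-stage samples. Late-stage sample 1 lay within the early-stage range and the other two far above it (log2 fold change 0.80, SE 0.25, adjusted p = 0.0783). Without late-stage sample 1 the log2 fold change of Igkc was 1.09 and passed the test (adjusted p = 0.000787). Iglc1 had 67, 59 and 55 counts in early-stage and 125, 129 and 114 counts in late-stage samples (log2 fold change 1.00, SE 0.29, adjusted p = 0.0592), and Iglc2 had 105, 45 and 142 against 168, 174 and 196 counts (log2 fold change 0.87, SE 0.36, adjusted p = 0.173). Neither lambda gene overlapped between stages, and Iglc1 was called by DESeq2 (adjusted p = 0.0198) and with a filter of 10 counts in every library (adjusted p = 0.0464), with adjusted p up to 0.198 in the other settings. Iglc3, the near copy of Iglc2, had 98, 70 and 93 against 68, 80 and 126 counts, with overlapping ranges (log2 fold change 0.05, adjusted p = 0.947).

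Late-stage sample 1 stood apart from its replicates in Ighd, Ighg1, Ighg3 and Igkc. Without it 6 genes were called higher, with log2 fold changes of 1.05 for Ighm, 1.09 for Ighd, 1.51 for Ighg2b, 3.41 for Ighg2c and 4.62 for Ighg3 beside that of Igkc, and Ighg1 was at -0.01.

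In AMPK-KO TAMs the family was split. Ighm and Ighg2b were higher than in WT, while Ighd, Igha, Igkc, Iglc1 and Iglc2 were lower, with mean Igha 27.9 times lower and Iglc1 at 0 counts in all 3 samples. The study made this comparison to ask about AMPK in TAMs. Lyz2 overlapped between WT and AMPK-KO, so WT and AMPK-KO remain labels here. By edgeR's quasi-likelihood test with an adjusted p under 0.05, 2 of the 10 genes were called higher, beside 11.3% of all 17532 genes tested, and 5 were called lower, beside 9.78%. The groups did not overlap for 8 of the 10 genes, beside 37.2% of all genes. The median log2 fold change of the 10 was -0.98, also with Iglc1 set at its bound, beside -0.0037 over all genes.

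Ighm had 113, 115 and 108 CPM in WT and 164, 163 and 167 CPM in AMPK-KO samples. The replicates of each group lay close together and the groups were well apart, at 112 ± 3.58 CPM in WT and 165 ± 1.73 CPM in AMPK-KO (SD, n = 3 each, log2 fold change 0.56, SE 0.05, adjusted p = 2.25e-05). Ighd, which B cells splice from the same primary transcript as Ighm, had 7.87, 7.02 and 7.13 CPM in WT and 1.17, 0.785 and 0.656 CPM in AMPK-KO samples. It fell by 3.08 on the log2 scale (SE 0.22, adjusted p = 5.52e-06), so that both genes of the IgM and IgD unit moved in opposite directions. The ratio of Ighm to Ighd per kilobase of exon was 14.4 to 16.5 in WT samples and 142 to 256 in AMPK-KO samples. It was 15.0 to 16.8 in early-stage samples, and 23.9, 15.2 and 15.8 in late-stage samples 1, 2 and 3.

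Igha, the class of mucosal antibody, had 508, 651 and 684 counts in WT and 15, 38 and 16 counts in AMPK-KO samples. In CPM the mean was 8.15 ± 1.00 in WT and 0.292 ± 0.158 in AMPK-KO (SD, n = 3 each), which is -4.79 on the log2 scale (SE 0.30, adjusted p = 2.44e-06). Ighg2b went the other way with 1.42, 1.65 and 2.37 CPM in WT and 3.09, 3.27 and 3.75 CPM in AMPK-KO samples (log2 fold change 0.89, SE 0.23, adjusted p = 0.0186). Its groups did not overlap, but the call was lost without WT sample 2, AMPK-KO sample 2 or AMPK-KO sample 3, with adjusted p of 0.0529, 0.0577 and 0.0667. Ighg2c, so different between the stages, had 3.73, 4.79 and 2.72 CPM in WT and 2.52, 3.34 and 3.94 CPM in AMPK-KO samples with overlapping ranges (log2 fold change -0.20, SE 0.24, adjusted p = 0.627). Without WT sample 2 that value was 0.02. Ighg1 had 125, 95 and 115 counts in WT and 45, 74 and 78 in AMPK-KO samples. These did not overlap but missed the threshold (log2 fold change -0.83, SE 0.30, adjusted p = 0.0754). Ighg3 was sparse in both groups, with 0, 12 and 19 counts in WT and 42, 20 and 8 in AMPK-KO samples (adjusted p = 0.485).

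All 3 light chain genes fell. Igkc had 13.4, 13.2 and 12.5 CPM in WT and 5.68, 5.98 and 6.23 CPM in AMPK-KO samples, which is -1.13 on the log2 scale (SE 0.10, adjusted p = 3.25e-05) between groups that did not overlap. Iglc1 had 22, 29 and 21 counts in WT and 0, 0 and 0 counts in AMPK-KO samples. Against a floor of 3 counts per library it was at least 8.37-fold lower in AMPK-KO (adjusted p = 0.00368), with counting error only in that bound. Iglc2 had 49, 115 and 86 counts in WT and 11, 11 and 6 counts in AMPK-KO samples (log2 fold change -3.19, SE 0.51, adjusted p = 0.00136). Iglc3 moved likewise, from 28, 33 and 38 counts to 5, 3 and 0 (log2 fold change -3.60, SE 0.89, adjusted p = 0.0157). Iglc4 had 3 counts in WT sample 3 and Ighe 4 counts in WT sample 1, and both had 0 in all AMPK-KO samples.

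**Figure D1:**
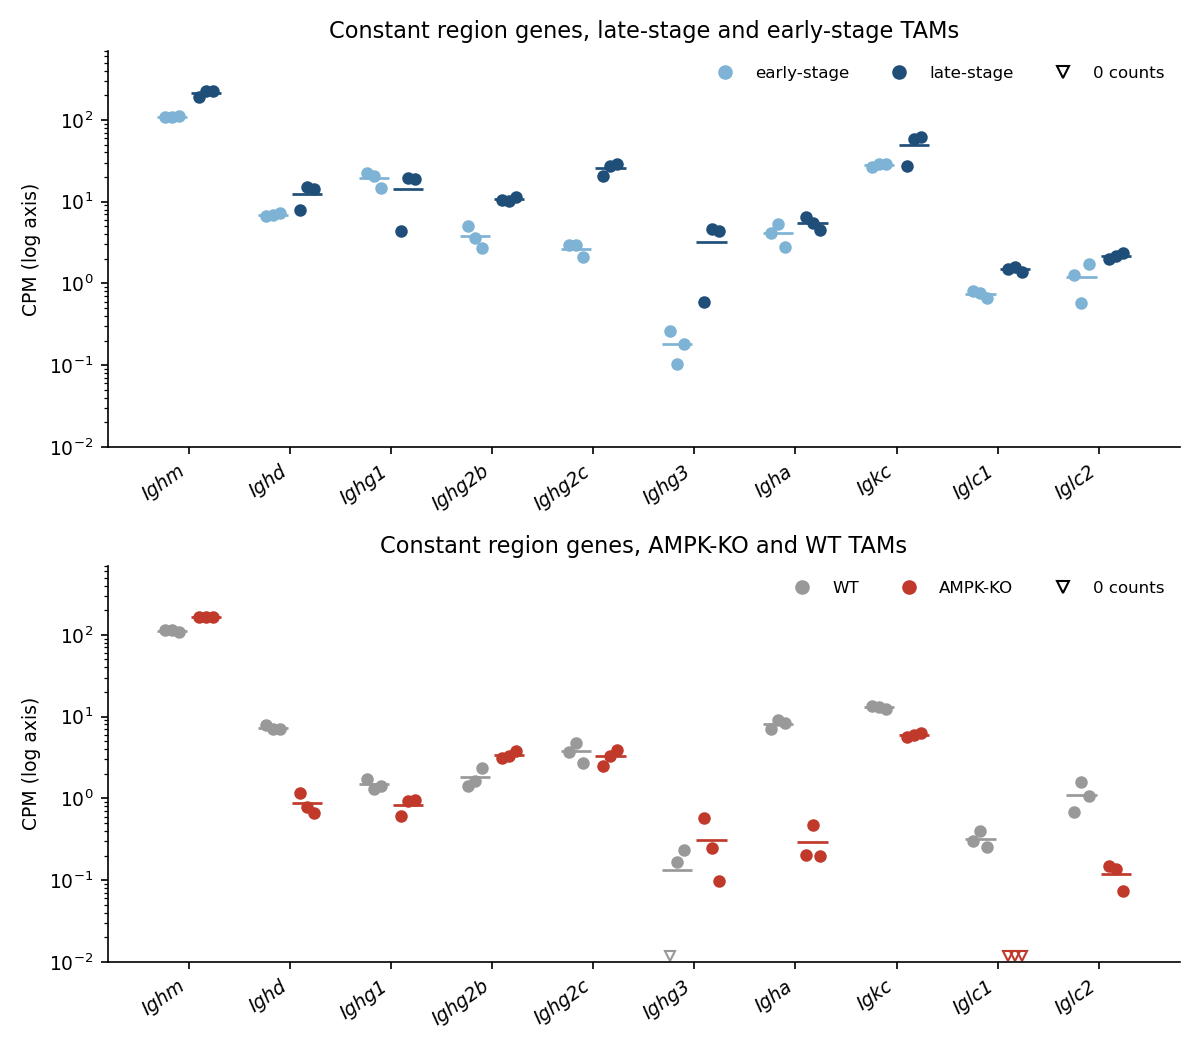
CPM of the 10 constant region genes in each library, on a log axis, with late-stage and early-stage samples above and AMPK-KO and WT samples below. Points are libraries, bars are group means and open triangles are libraries with 0 counts. In AMPK-KO samples Ighm lies above WT at 163 to 167 CPM while Ighd, Igha, Igkc and the lambda genes lie below it.

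**Figure D2:**
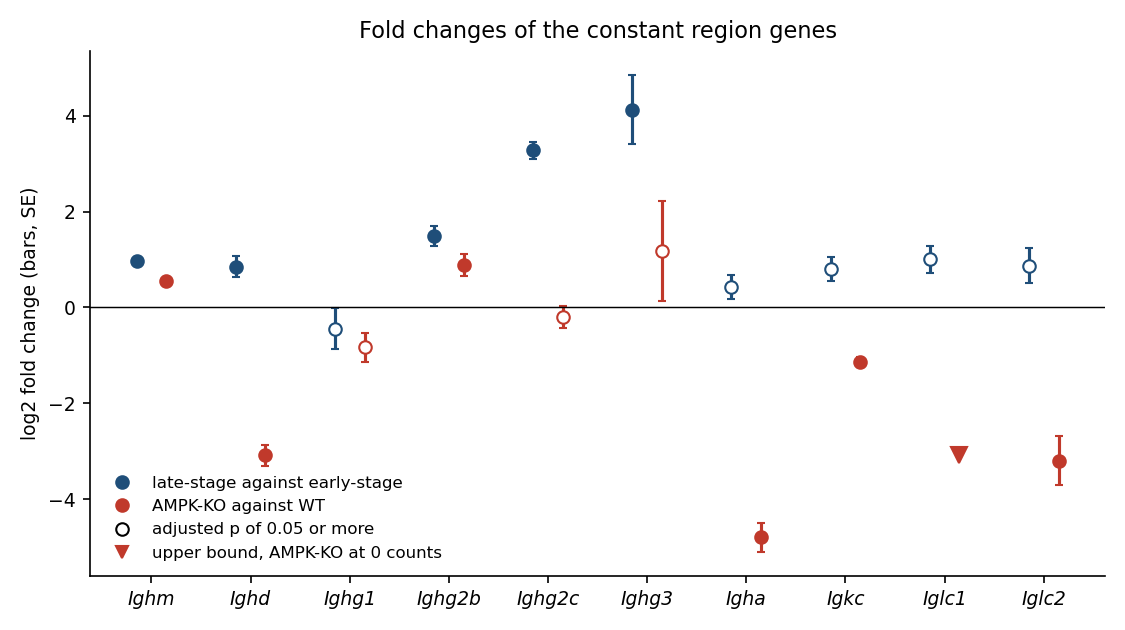
Log2 fold changes of the 10 genes with their SE for late-stage against early-stage and AMPK-KO against WT, filled where the adjusted p of edgeR is under 0.05. The triangle for Iglc1 is the upper bound of its log2 fold change, since AMPK-KO libraries had 0 counts. Ighg2c reaches 3.28 between the stages and -0.20 between the genotypes, and Igha 0.42 and -4.79.

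Because Ighm dominated the family, sums hid these changes. The 10 genes together had 171 to 180 CPM in early-stage and 270 to 372 CPM in late-stage samples, and 144 to 154 CPM in WT and 178 to 182 CPM in AMPK-KO samples. Without Ighm the sums were 61.3 to 70.2 CPM in early-stage, 81.3 to 147 CPM in late-stage, 36.1 to 39.2 CPM in WT and 14.0 to 15.9 CPM in AMPK-KO samples. Ighm made up 75.7%, 74.6% and 74.9% of the family's counts in WT and 92.1%, 91.5% and 91.3% in AMPK-KO samples, so that leaving it out turned a higher sum in AMPK-KO into a lower one. In the stage samples its share was 60.9% to 64.2% at the early stage and 69.9%, 61.2% and 60.4% in late-stage samples 1, 2 and 3. Sums over the family were not tested.

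Heavy-chain classes other than Ighm changed in composition in both comparisons. At the early stage Ighg1 was the largest of them, with 54.4%, 52.2% and 49.2% of the heavy-chain counts other than Ighm, against 8.66%, 23.4% and 22.9% at the late stage. Ighg2c took 7.05% to 7.43% at the early stage and 41.0%, 33.4% and 35.2% at the late stage. In WT samples Igha held 32.3% to 37.7% and Ighd 29.3% to 36.1%, and together these were the larger part. In AMPK-KO samples Igha held 2.06% to 5.24% and Ighd 6.83% to 14.3%, whereas Ighg2b held 36.1% to 39.1% and Ighg2c 30.9% to 41.0%. These shares rest on 2471 to 6840 counts per library in the stage samples, on 1571 to 1814 in WT and on 602 to 776 in AMPK-KO samples. The exact 95% binomial intervals of these shares reached at most 1.99 percentage points to either side in the stage samples and 3.95 in the genotype samples, for counting error only. A higher share of Ighg2c in AMPK-KO samples thus came with a CPM that overlapped with WT.

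**Figure D3:**
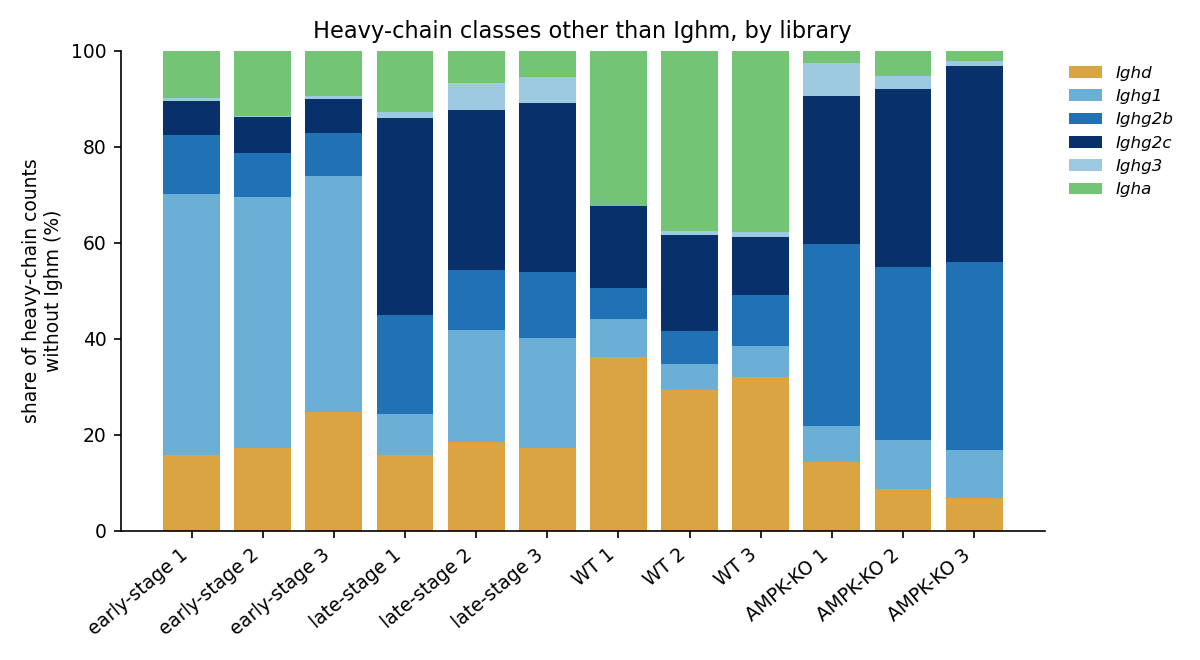
Share of each heavy-chain class in the heavy-chain counts other than Ighm, in percent, for each of the 12 libraries. Ighg1 gives 49.2% to 54.4% in early-stage samples, Ighg2c 33.4% to 41.0% in late-stage samples, Igha 32.3% to 37.7% in WT samples, and Ighg2b and Ighg2c together the larger part in AMPK-KO samples.

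The balance of heavy to light chain also differed. Per kilobase of exon, Ighm and Igkc were level at the early stage, with ratios of 1.17, 1.06 and 1.07, and at the late stage the ratios were 1.97, 1.10 and 1.04. They were 2.37, 2.45 and 2.42 in WT samples and 8.14, 7.70 and 7.54 in AMPK-KO samples. Every AMPK-KO sample therefore had far more Ighm per Igkc than every WT sample, and late-stage sample 1 stood apart from its replicates in this ratio too. Per kilobase, mean Ighm and Igkc were 58.0 and 52.9 CPM at the early stage, 113 and 91.9 CPM at the late stage, 59.3 and 24.5 CPM in WT and 87.3 and 11.2 CPM in AMPK-KO samples. The lambda genes Iglc1, Iglc2 and Iglc3 together gave 9.29%, 15.7% and 12.4% of light-chain counts in WT and 3.68%, 2.83% and 1.18% in AMPK-KO samples, and 7.23% to 13.7% in the stage samples.

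In AMPK-KO samples the fall of the light chains, Ighd and Igha came with a fall of most B cell genes tested, and Ighm did not follow. In a list of 13 genes of B cell identity and B cell receptor partners, 12 were tested in AMPK-KO. Of these, 7 were called lower and 1 higher, beside 9.78% and 11.3% of all genes. Their median log2 fold change was -1.72, beside the -0.0037 of all genes. The fallen genes were Cd79a, Ms4a1, Pax5, Cr2, Fcer2a, Blk and Ebf1. Cd79a, the signaling partner without which surface immunoglobulin is not displayed, had 320, 386 and 457 counts in WT and 7, 8 and 10 in AMPK-KO samples (log2 fold change -5.57, SE 0.25, adjusted p = 3.39e-07). Ms4a1, which encodes the B cell surface protein CD20, had 296, 259 and 202 counts in WT and 17, 45 and 31 in AMPK-KO samples (log2 fold change -3.10, SE 0.35, adjusted p = 0.000126). Pax5, the transcription factor that maintains B cell identity, had 262, 182 and 266 counts in WT and 0, 0 and 8 in AMPK-KO samples, and Cr2 138, 109 and 199 against 0, 2 and 0. Cd79a, Pax5 and Cr2 were thus at or near 0 in all AMPK-KO samples, in which Ighm reached 12097 to 13453 counts.

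Cd79b, the other signaling partner, was the 1 gene of the list called higher. It had 1083, 1123 and 1285 counts in WT and 1438, 1611 and 1719 in AMPK-KO samples (log2 fold change 0.39, SE 0.08, adjusted p = 0.00713). Cd22 at 32.8 and 33.2 CPM and Blnk at 69.6 and 61.1 CPM, in WT and AMPK-KO, were not called. Summed over the list the level was 144 to 157 CPM in WT and 122 to 127 CPM in AMPK-KO samples, since Blnk, Cd22, Cd79b and Bank1 carry most of it. Counts of Ighm per count of Cd79a were 19.2 to 25.4 in WT and 1345 to 1728 in AMPK-KO samples, and those of Igkc per Cd79a 2.24 to 3.02 and 50.3 to 60.0. The part of B cells in the change of the constant region genes was not tested.

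At the late stage 4 of the 13 B cell genes were called higher and 0 lower, beside 4.31% and 4.88% of all genes. The 4 were Cd79b, Pax5, Fcer2a and Blnk. DESeq2 called 7 higher and 0 lower, beside 2650 of all 17630 genes called in either direction. At an unadjusted p under 0.05 edgeR had 7 higher and 0 lower, for which no share of all genes was counted. The median log2 fold change was 0.82 beside 0.0027 over all genes. Pax5 had 307, 264 and 409 counts at the early stage and 461, 712 and 716 at the late stage (log2 fold change 0.93, SE 0.22, adjusted p = 0.0295). Cd79a had 589, 487 and 382 counts at the early stage and 499, 1003 and 1103 at the late stage, with overlap (log2 fold change 0.82, adjusted p = 0.108). Late-stage sample 1 was low in Cd79a as it was in Igkc and Ighd. Ighm counts per Cd79a count were 15.4 to 23.8 at the early stage and 31.8, 18.2 and 16.8 at the late stage. The list summed to 159 to 175 CPM at the early and 201.5 to 249.6 CPM at the late stage, and its part in the result was not tested.

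**Figure D4:**
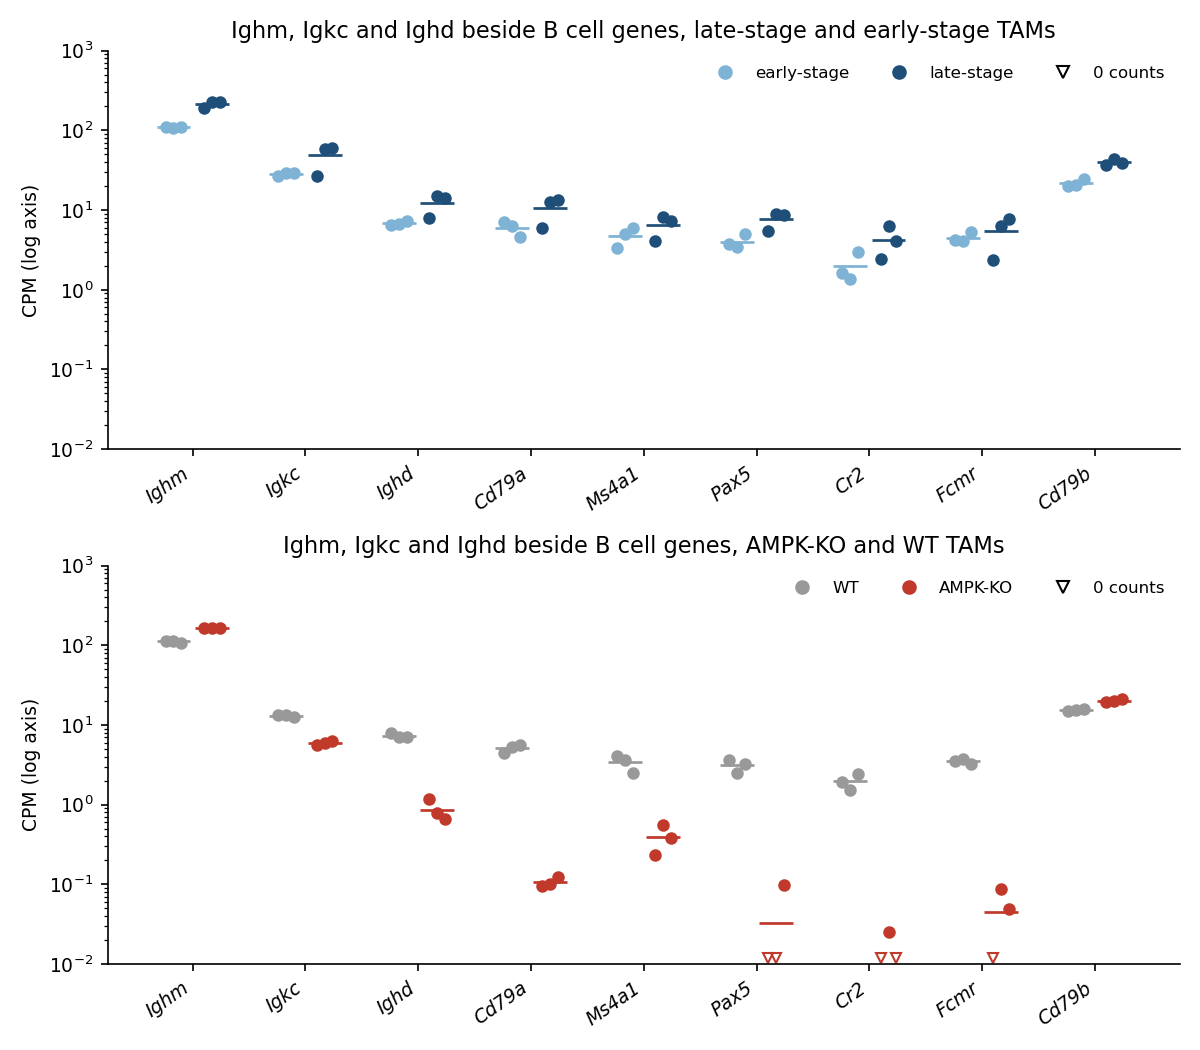
CPM of Ighm, Igkc and Ighd beside some B cell genes in each library, on a log axis, with the stage samples above and the genotype samples below. Cd22, Blnk and Bank1, which with Cd79b carry most of the summed B cell list, are not shown. Points are libraries, bars are group means and open triangles are libraries with 0 counts. In AMPK-KO samples Cd79a, Pax5, Cr2 and Fcmr sit near 0 while Ighm and Cd79b lie above WT.

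Plasma cell genes moved in both directions. Of 11 genes of plasma cells and antibody secretion, 3 were called lower in AMPK-KO (Pou2af1, Fkbp11 and Txndc5) and 3 higher (Irf4, Prdm1 and Sdc1) of 10 tested, with a median log2 fold change of -0.10. Over all genes 9.78% were called lower and 11.3% higher. Pou2af1, a coactivator of immunoglobulin transcription, had 91, 76 and 131 counts in WT and 12, 0 and 10 in AMPK-KO samples (log2 fold change -3.77, SE 0.74, adjusted p = 0.00458). Jchain, which joins IgM and IgA into polymers, had 56, 112 and 199 counts in WT and 57, 122 and 111 in AMPK-KO samples, and so overlapped where Igha did not (log2 fold change -0.38, adjusted p = 0.582). At the late stage edgeR called 0 of 11 higher and 1 lower, beside 4.31% and 4.88% of all genes. The 1 lower was Sdc1 (log2 fold change -0.88, adjusted p = 0.000145). DESeq2 called 2 higher and 1 lower, beside 2650 of all 17630 genes called in either direction. At an unadjusted p under 0.05 edgeR had 3 higher and 1 lower, for which no share of all genes was counted. Jchain had 338, 358 and 429 counts at the early and 245, 609 and 640 at the late stage. The list summed to 400 to 425 CPM at the early stage, 381 to 402 CPM at the late stage, 358 to 364 CPM in WT and 370 to 375 CPM in AMPK-KO samples. Macrophages and melanoma cells also express several of its abundant members, such as Xbp1.

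Genes of immunoglobulin assembly were hardly detected. Of 6 genes of the precursor B cell receptor and the recombination enzymes, Igll1, Rag2 and Vpreb2 had 0 counts in all 12 libraries, and Rag1 had 4 counts in late-stage sample 3 and 0 elsewhere. Dntt, the enzyme that adds bases at V(D)J joints, was tested and not called in either comparison (adjusted p = 0.618 and 0.458).

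Receptors through which macrophages and B cells bind antibody were also compared. Of 12 Fc receptor and transporter genes, 8 were tested in each comparison. Of these, edgeR called 2 higher and 2 lower in AMPK-KO samples, beside 11.3% and 9.78% of all genes. DESeq2 called 3 higher and 2 lower, beside 4275 of all 17532 genes called in either direction. In AMPK-KO samples Fcgr4, which binds the IgG2 subclasses, rose from 297 to 552 CPM (log2 fold change 0.89, SE 0.04, adjusted p = 5.18e-07) and Trim21, a cytosolic antibody receptor, rose by 0.42 on the log2 scale. Fcgrt, which recycles IgG, fell by 0.54 on the log2 scale from 386 to 266 CPM (adjusted p = 0.000115). Fcmr, the IgM receptor that B cells carry, had 254, 269 and 267 counts in WT and 0, 7 and 4 in AMPK-KO samples (log2 fold change -6.19, SE 0.51, adjusted p = 1.68e-05), opposite to Ighm. At the late stage Fcgr2b, the inhibitory IgG receptor, was the 1 gene of the list called by edgeR, and it fell by 0.64 on the log2 scale (adjusted p = 0.000625). Over all genes edgeR called 4.31% higher and 4.88% lower between the stages. DESeq2 called 0 of the 8 higher and 2 lower, beside 2650 of all 17630 genes called in either direction.

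Markers of other cell types moved with the groups as well, and their part in the constant region result was not tested. In AMPK-KO samples 6 of 7 T cell genes (Cd3d, Cd3e, Cd3g, Cd8a, Cd8b1 and Trac), 6 of 6 NK cell genes (Eomes, Gzma, Klrb1c, Klrk1, Ncr1 and Prf1), 6 of 6 conventional dendritic cell genes (Ccr7, Cd209a, Clec9a, Flt3, Xcr1 and Zbtb46) and 3 of 6 neutrophil genes (Csf3r, S100a8 and S100a9) were called higher. Of the macrophage list Csf1r and Itgam were called higher and Cd68 lower, of the plasmacytoid dendritic cell list Bst2 and Ly6d lower, and 6 of 7 melanoma genes lower (Dct, Mlana, Pmel, Sox10, Tyr and Tyrp1). These counts stand beside 11.3% of all genes called higher and 9.78% called lower. The T cell list summed to 85.4 to 101 CPM in WT and 164 to 172 CPM in AMPK-KO samples and the NK cell list to 48.5 to 57.6 and 132 to 138 CPM. In AMPK-KO samples 7 of the 12 B cell genes tested were called lower and 1 higher, while the T and NK cell lists were higher. At the late stage Cd8a and Trac of the T cell list, C1qa of the macrophage list and Ccr7 were called higher, and 5 NK cell genes (Gzma, Klrb1c, Klrk1, Ncr1 and Prf1), 3 neutrophil genes (Mmp9, S100a8 and S100a9), Cd209a and 5 melanoma genes (Dct, Mitf, Pmel, Tyr and Tyrp1) lower. Between the stages 4.31% of all genes were called higher and 4.88% lower. Of the plasmacytoid dendritic cell list 0 of 5 were called by edgeR or DESeq2, also at an unadjusted p under 0.05. The NK cell list summed to 121 to 135 CPM at the early and 60.9 to 75.3 CPM at the late stage.

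Variable segments, which are expressed with a constant region after V(D)J recombination, were counted beside the constant region genes. Heavy variable segments together had 1011, 831 and 593 counts at the early stage and 888, 1928 and 1816 at the late stage, and 310, 387 and 446 in WT and 206, 285 and 156 in AMPK-KO samples. Heavy-chain constant counts per heavy variable count were 23.8 to 31.3 in WT and 48.5 to 91.2 in AMPK-KO samples, so that the rise of Ighm was not matched by variable segments. Kappa variable segments had 510, 585 and 614 counts in WT and 236, 153 and 213 in AMPK-KO samples, and the ratio of Igkc to them was 1.63 to 1.90 and 1.78 to 3.14. At the late stage the heavy ratio was 22.7, 12.9 and 14.0, against 12.4 to 19.5 at the early stage. Of the heavy segments tested, edgeR called 4 higher and 2 lower of 26 between the stages, where DESeq2 called 5 higher and 0 lower (4 lower at an unadjusted p under 0.05 with either tool), and edgeR called 1 higher and 5 lower of 11 in AMPK-KO samples. Of the kappa segments edgeR called 3 higher and 1 lower of 38 between the stages, where DESeq2 called 6 and 2, and 1 higher and 7 lower of 15 in AMPK-KO samples. DESeq2 gave 1 higher and 5 lower heavy segments and 1 higher and 8 lower kappa segments in AMPK-KO samples. Over all genes tested edgeR called 4.31% higher and 4.88% lower between the stages. In AMPK-KO samples these shares were 11.3% and 9.78%. DESeq2 called 2650 of 17630 genes between the stages and 4275 of 17532 between the genotypes. Several of the segment counts lie near these shares. Of D and J segments edgeR and DESeq2 called 0 of 8 between the stages, also at an unadjusted p under 0.05, and in AMPK-KO samples edgeR called 1 of 3 lower and DESeq2 0, with 1 lower at an unadjusted p under 0.05 by both. Of the lambda variable segments 0 of 3 and 0 of 1 tested were called by edgeR, with 1 higher at the late stage at an unadjusted p under 0.05 and by DESeq2, and Iglv1 had 73, 38 and 30 counts at the early and 111, 96 and 147 at the late stage.

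The segments in use differed between groups. The heavy segment with the most counts in the stage samples, Ighv6-6, had 0, 0 and 4 counts at the early stage and 57, 192 and 188 at the late stage, and Igkv4-57 had 0, 0 and 3 against 56, 169 and 150. Igkv10-96 had 153, 93 and 179 counts at the early stage against 27, 26 and 61 at the late stage. Igkv6-23 had 94, 35 and 49 counts at the early stage, 49 in late-stage sample 1 and up to 259 in the other two. Late-stage sample 1 was the lowest late-stage sample for Ighv6-6, Igkv4-57 and Igkv6-23, and also for Ighv5-17 with 12 counts against 109 and 146. Ighv9-3 was high in late-stage sample 1, with 180 counts against 63 and 62 in samples 2 and 3. In the genotype samples Ighv1-53 had 24, 49 and 54 counts in WT and 0 in all AMPK-KO samples, whereas Ighv5-9-1 had 0, 4 and 0 against 6, 66 and 36. Igkv1-110 had 65, 88 and 59 counts in WT and 22, 12 and 4 in AMPK-KO samples, and Ighv3-6, Igkv3-12 and Igkv10-96 overlapped between the groups. Across the 134 segments with at least 10 counts in the stage samples, Pearson's r of the segment shares was 0.147 to 0.337 between libraries of different stages. It was 0.739 to 0.841 between early-stage samples, 0.923 between late-stage samples 2 and 3, and 0.453 and 0.373 between late-stage sample 1 and these. Across 78 segments in the genotype samples r was 0.551 to 0.655 within groups and -0.183 to 0.336 between them. These are correlations across segments of libraries, which are not independent replicates, given as a description.

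The genes outside the immunoglobulin loci whose log2 CPM followed the summed constant region genes most closely over the 6 stage libraries were Ccl22 (Pearson's r 0.999), Cd6, Ccr7, Nomo1 and Acat1, from 13161 genes with a mean of at least 1 CPM. Ccl22, a chemokine, had 48.7 to 50.6 CPM at the early and 66.0 to 81.2 CPM at the late stage. Over the genotype libraries they were Ttf1 (r 0.998), Atxn7, Tbl1xr1, Ffar2 and Tmbim6, from 13142 genes. With 6 libraries in 2 groups, such values mostly follow the difference between the groups and are a description.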

How the data were processed

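Bulk RNA-seq counts of sorted TAMs from 12 samples were analysed. Reads had been aligned with HISAT2 and assigned to genes with featureCounts, and the authors deposited the raw counts, 1 table for each comparison. The submitters' notes name GRCm38 (mm10), and tool versions, strand and the treatment of multiply mapped reads are not given in the sources used here. Each table was fitted on its own with edgeR 4.0.16 in R 4.3.3 (filterByExpr, TMM, glmQLFit, glmQLFTest) across all genes, with Benjamini-Hochberg adjustment. CPM used TMM-scaled totals for single genes. Intervals and floors (3 counts per library) cover counting error only. Alternatives were RLE, upper-quartile and no factors, DESeq2 1.42.0, other filters, a log2 fold change above 1, a block for the replicate number, and the omission of each library.

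The family, the gene lists and the tests were chosen with earlier results of these data known. Named were the 10 genes, Ighe, Iglc3 and Iglc4, the called genes of each list and otherwise its members with most counts, the 3 variable segments with most counts, and the 5 genes most like the family. The fit was tested on simulated data with 100 genes changed by 1 and 100 by 2 on the log2 scale. Of those changed by 1, edgeR called 63% for the stage and 69% for the genotype samples. Of those changed by 2, it called 81% and 84%, and it also called 7 and 10 unchanged genes. Some genes of the lists are not reported here.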

Additional observations from a re-analysis of the deposited data

How the results depend on the processing

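Leaving out 1 library at a time gave 3 to 6 genes called higher between the stages (3 without early-stage sample 2) and 1 to 2 between the genotypes. Over all genes such fits called 653 to 2835 between the stages, beside 1619 of 17630 with all libraries. Without early-stage sample 2 they called 680 of 18428. Between the genotypes they called 2414 to 4039, beside 3693 of 17532. The genotype comparison kept 5 called lower and the stage comparison 0. Asking also for an absolute log2 fold change above 1 left 3 genes higher at the late stage and 0 in AMPK-KO. No share of all genes was counted at that threshold. A filter of 10 counts in every library left 3 lower in AMPK-KO, since Iglc1 and Iglc2 were then not tested. With that filter 3823 of 15285 genes were called in either direction between the genotypes. The log2 fold change of Ighg2c between the genotypes ranged from -0.39 to 0.020 with a library left out, changing sign without WT sample 2, and the log2 ratio of the summed CPM went from 0.27 to -1.31 without Ighm. Of 129 alternative values for the stage comparison 119 kept direction and side of the threshold, and of 127 for the genotype comparison 123 did. The cause of the other changes was not tested. Same-numbered samples did not deviate together (correlations of -0.0039 to 0.0423), and with the replicate number as a block the calls over all genes went from 1619 to 1417 and from 3693 to 3862. The block changed no call of the 10 genes. Depth limits the precision most where counts are few, as for Ighg3 at the early stage and for Ighg3, Iglc1 and Iglc2 in AMPK-KO samples.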
